A study of Homo sapiens with 12 samples.

Results

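The proteasome genes were taken as every gene whose symbol runs from the PSMA to the PSMG series followed by a number, found through the transcript that each array probe names. They numbered 48 of the 20708 genes on the array and were read by 489 probes. MDA-MB-231, a human breast cancer cell line of the triple-negative, mesenchymal type, was the only cell used. Total RNA of 4 groups of 3 replicates was hybridised in 1 colour to exon arrays, which carry several probes per gene, 1 sample per array. The group cntrl received control oligonucleotides and mimic145 received a pre-miR-145-5p mimic, transfected at 5 nM. The group sirnaAGO2 received Dicer-substrate siRNAs against AGO2, 1 of the 4 human Argonaute proteins that load microRNAs, at 500 pM for 72 h. The group sirnaAGO2+mimic145 received the mimic and these siRNAs. The controls were therefore transfected cells as well, with a negative-control precursor and a negative-control siRNA as the protocol names them. All 4 groups are recorded with a precursor at 5 nM and a siRNA at 500 pM for 72 h. The sample labels do not name the negative control that mimic145 and sirnaAGO2 received beside their own reagent. The labels do not say that replicates were separate cultures, so p-values measure the spread between these samples, which may be technical. The RNA came from whole cultures of 1 line, so a change in RNA per cell and a change in the mix of cells cannot be told apart.

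The proteasome is the large protease that degrades proteins tagged with ubiquitin. Its core is a barrel of alpha rings, which gate the entrance, around beta rings, which hold the cutting sites. A regulatory cap sits on the barrel. The base of the cap has a ring of ATPases that unfold the substrate, and the lid removes the ubiquitin chain. Interferon and some cell types swap the catalytic beta subunits PSMB5, PSMB6 and PSMB7 for PSMB8, PSMB9 and PSMB10, which gives the immunoproteasome, and other caps (the PSME proteins) can replace the regulatory one. When proteasome activity falls, the transcription factor NFE2L1, processed by the protease DDI2, raises many subunit genes together through antioxidant response elements. Breast cancer cells carry a high load of proteins to degrade and depend on this enzyme.

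The reagent behind the main contrast was the mature hsa-miR-145-5p, whose seed (bases 2 to 8, in capitals) pairs with target RNAs. The sequence below is from RefSeq, build GRCh38.p14, plus strand, chr5:149430661-149430683.
hsa-miR-145-5p: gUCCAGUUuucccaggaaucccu

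Promoter sequence was given for 42 of the 48 members, and the 250 bases before the start of each were searched on both strands for the letters TGACNNNGC, the core of the antioxidant response element. At least 1 match was found in 13 of the 42 genes (31.0%), against 13.2% of the 27305 genes with a promoter in the RefSeq table. Of the 14 members that rose with the mimic (below) and had a promoter, 2 held it, PSMC5 and PSMG1. CCAAT was found in 19 of the 42 (45.2%, against 37% of all genes) and GGGCGG, the GC box, in 26 (61.9%, against 46.2%). Matches of different motifs can share bases, and a match is a description of sequence and not a site of binding. The windows below show the matched letters in capitals on the strand of each gene, with up to 30 bases on either side. They were chosen because PSMG1 rose with the mimic, PSMB9 fell with it and PSME4 rose on silencing, and PSMD7, which has CCAAT and no response element, showed the largest rise.
PSMG1 (minus strand, chr21:39183596-39183664): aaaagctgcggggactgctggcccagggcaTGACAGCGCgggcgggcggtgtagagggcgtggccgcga
PSMB9 (plus strand, chr6:32854014-32854082): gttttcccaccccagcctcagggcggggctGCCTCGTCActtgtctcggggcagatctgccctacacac
PSME4 (minus strand, chr2:53970994-53971057): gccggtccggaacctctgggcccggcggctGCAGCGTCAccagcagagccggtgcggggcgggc
PSMD7 (plus strand, chr16:74296586-74296650): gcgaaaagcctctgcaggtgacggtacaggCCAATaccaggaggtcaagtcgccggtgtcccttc
In PSMB9 and PSME4 the response element reads on the opposite strand. The sequences differ in where the match lies, 25 bases before the start in PSME4 and 174 before it in PSMG1.

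A probe was kept if, in 1 group or more, none of its spots fell short of the scanner's background test on any of the 3 arrays, and a gene's level is the mean log2 intensity of its kept probes. Of the 48 members 46 passed, with 470 kept probes, between 4 and 47 per gene. PSMA8, the alpha subunit of the testis, and PSMB11, the beta subunit of the thymus, were the exceptions, with none of their 8 probes and none of their 1 probe kept. All other subunits of the standard core and cap were measured. The share of spots past that test ran from 60.5% to 77.3% per array. The line's defining genes VIM and AXL were measured (8 of 9 and 19 of 19 probes above background on all 12 arrays), PGR and FOXA1 were not (0 of 9 and 0 of 2), and ESR1 had 3 of 14 probes above background. Of genes often low in this line, however, GATA3 had 6 of 6 and EPCAM 7 of 10 probes above background. AGO2 had a log2 intensity of 9.12 ± 0.10 (SD, n = 3) in cntrl and 8.41 ± 0.05 in sirnaAGO2. It fell by 0.71 on the log2 scale (limma, adjusted p = 0.00495) with all 19 probes lower. AGO2 RNA was thus lowered and not absent in sirnaAGO2. Its level in sirnaAGO2+mimic145, which is also called silenced below, is not given here. Cells called normal below are those not silenced, and their AGO2 need not be unchanged: the study reported that the mimic raised Ago2 protein and, in this line, its transcript.

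In cells without AGO2 silencing the mimic was accompanied by higher RNA of 3 of 7 beta, 5 of 9 base and 4 of 8 lid genes, and 1 lid gene was lower. Of the 46 members 16 were higher and 3 lower in mimic145 than in cntrl at an adjusted p under 0.05 (limma, blocked on replicate number, adjusted over 18255 genes). That is 34.8% higher and 6.52% lower, against 11.6% and 11% of all genes tested. In the brightest 25% of genes, where 43 of the 46 members lay, 18.2% were called higher and 12.8% lower. The changes were small: the members ranged from -0.31 to 0.58 on the log2 scale, with a median of 0.10, against a median of 0.01 over all genes. With scaling to the 75th percentile in place of quantile normalization the medians were 0.10 and 0.07, and the gap between them was 0.03. Members were also measured with less spread than other genes, with a median standard error of 0.07 against 0.10. The replicate pairs gave member medians of 0.22, 0.15 and 0.11, and all-gene medians of -0.02, 0.00 and 0.08. Without the replicate block 8 members were higher and none lower, and with replicate 1, 2 or 3 left out 2, 4 and 5 were higher and none lower, while 5.13%, 2.70%, 5.98% and 4.12% of all genes were called higher. Leaving out single arrays took the count of higher members to 9 (cntrl replicate 1), 9 (mimic145 replicate 1), 10 (mimic145 replicate 2) and 10 (cntrl replicate 3). In that order 7.27%, 6.69%, 8.87% and 7.52% of all genes were called higher. No member was lower without cntrl replicate 2 or mimic145 replicate 1 or 3.

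**Figure D1:**
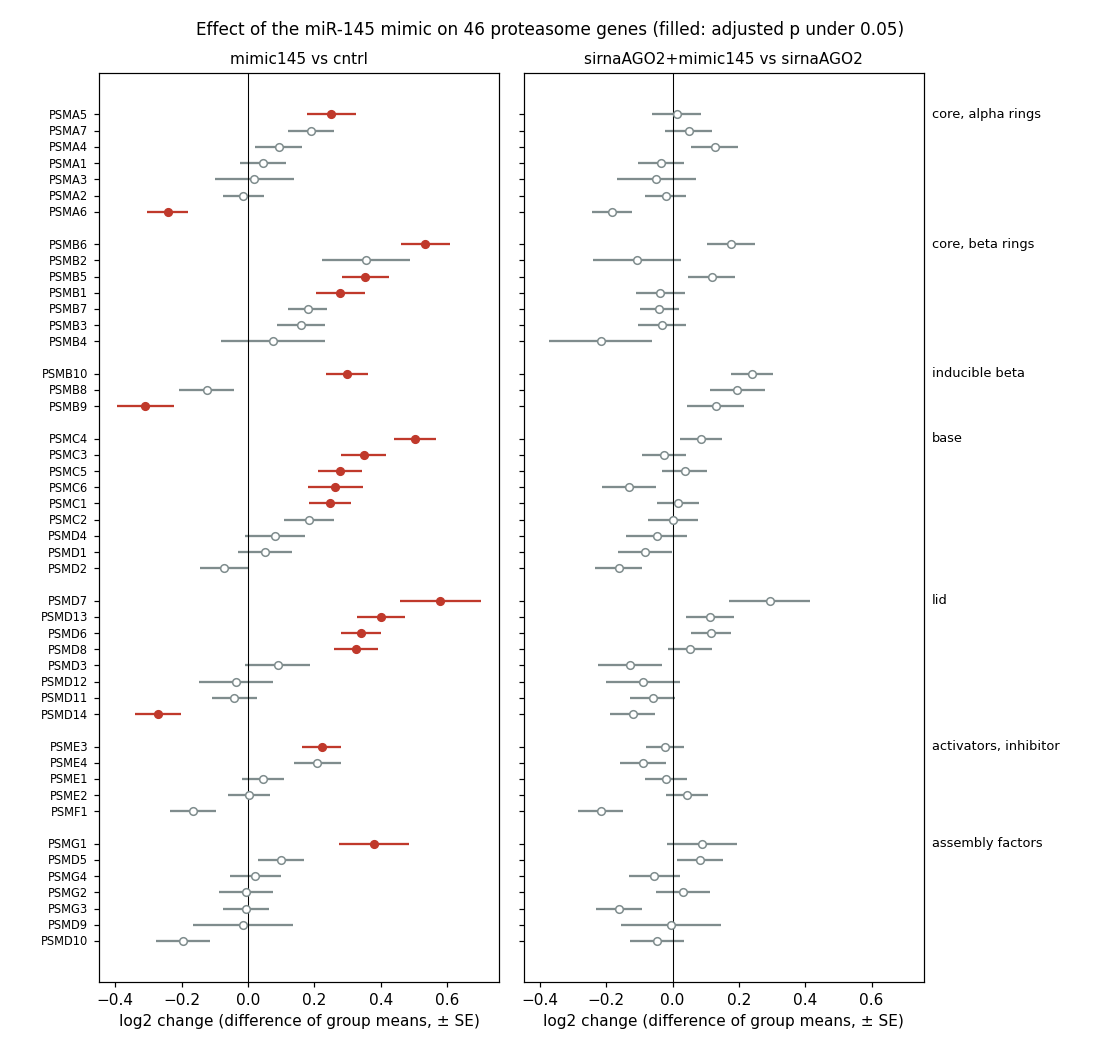
Log2 change of 46 proteasome genes with the mimic in cells with AGO2 not silenced (left) and with AGO2 silenced (right), grouped by part of the complex. Points are differences of group means with their standard error, and filled points passed an adjusted p under 0.05, which 19 genes did on the left and 0 on the right.

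The beta rings hold the catalytic sites, and all 7 constitutive beta genes had a positive change (median 0.28), of which 3 rose, PSMB6, PSMB5 and PSMB1. PSMB6, the caspase-like site, had log2 intensities of 12.32, 12.48 and 12.21 in cntrl replicates 1 to 3 and 12.83, 12.90 and 12.88 in mimic145. All the mimic arrays lay above all the control arrays, and all 6 probes were higher. The rise was 0.53 ± 0.07 (SE) on the log2 scale, 1.45-fold (adjusted p = 0.00132), and it passed in each of 25 alternative settings of the limma fit, while the methods' t-test on the 3 pairs called no gene after adjustment. PSMB5, the chymotrypsin-like site and the target of the drug bortezomib, went from 11.25, 11.32 and 11.35 to 11.72, 11.64 and 11.62. The groups were again apart, with a rise of 0.35 ± 0.07 (1.28-fold, adjusted p = 0.00774). Its 4 probes ran from 0.06 to 0.74, and the call was lost with a median over probes (0.15, adjusted p = 0.252) and with no filter on dim probes. PSMB1, a beta subunit without a cutting site, rose by 0.28 (adjusted p = 0.0241). PSMB7, the trypsin-like site, changed by 0.18 ± 0.06 and did not pass (adjusted p = 0.0568), although its arrays were also apart, at 12.95 to 13.00 in cntrl and 13.14 to 13.18 in mimic145.

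A single probe that read low on 1 or a few arrays moved the value of several other members. PSMB4, a non-catalytic beta subunit, had levels of 13.95, 14.09 and 14.11 in cntrl and 13.58, 14.42 and 14.36 in mimic145. Its mimic145 replicate 1 was the lowest and the other mimic arrays the highest of these 6. In that replicate 1 of its 7 probes read 10.02, against a median of 15.35 for the same probe over 12 arrays, and this probe was well above background on 10 arrays. Its change in silenced cells was -2.04, and PSMB4 was low in sirnaAGO2+mimic145 replicate 1 as well, at 13.51. Without the probe the change went from 0.08 to 0.34. PSMA3, an alpha subunit, behaved alike in mimic145 replicate 2, where 1 of its 11 probes read 7.40 against a median of 13.51. Without it the change went from 0.02 to 0.21. In PSMB2, another non-catalytic beta subunit, the low probe was on sirnaAGO2+mimic145 replicate 1 and read 7.80 against 10.99. These probes were picked after their values were seen, and why they read low was not tested.

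A stricter filter kept a probe if it passed the background test on each of the 12 arrays, and removed the low probes of PSMB4 and PSMB2. It reads the signal on the arrays compared, so it drops probes because they read low there, and over all genes it moved the calls from 2111 higher and 2003 lower to 2985 and 1952 and the median from 0.01 to 0.05. It gave 21 members higher and 3 lower, against 18.2% of all genes called higher. Under it PSMB4 rose by 0.34 (adjusted p = 0.00375), PSMB2 by 0.38 (adjusted p = 0.00208) and PSMB7 by 0.18 (adjusted p = 0.0340), so that 6 of the 7 beta genes passed. PSMA3 kept its low probe, which was above background, and stayed at 0.03.

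**Figure D2:**
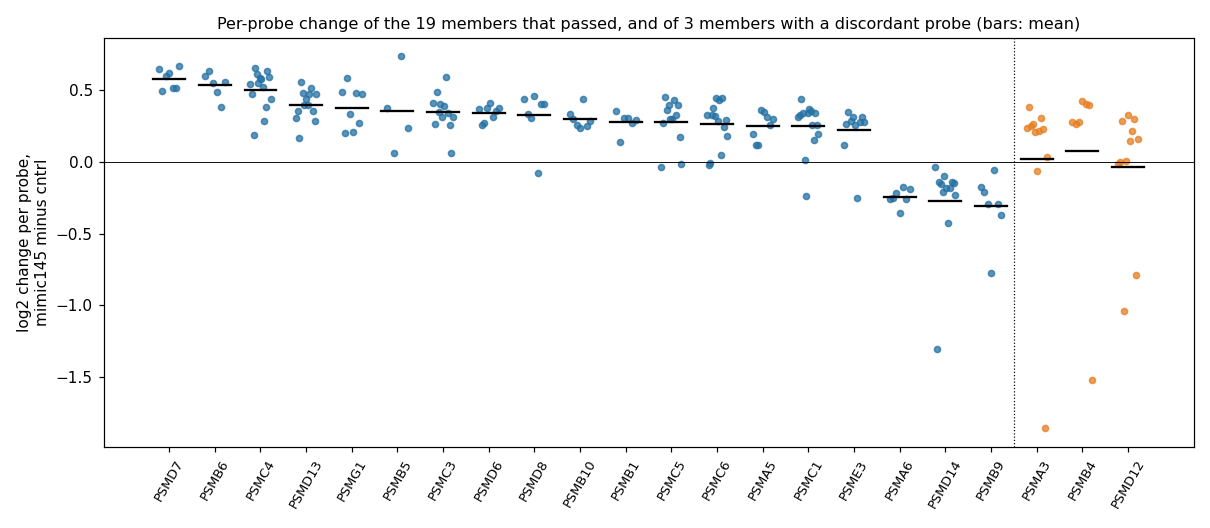
Log2 change of each kept probe with the mimic, mimic145 minus cntrl, for the 19 members that passed (blue) and for 3 members with a strongly discordant probe (orange); bars are the mean over probes. In 14 of the 19 every probe lay on the side of the call, while single probes of PSMA3 at -1.86 and PSMB4 at -1.52 lay far below the others of the same gene.

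Discordant probes were few among the members that passed. A member's level is the mean of these same probes, so passing itself favours agreement, and the counts below are no support for the calls. Of the 176 kept probes of the 19 members that passed, 169 lay on the side of the call, and in 14 members all did. Over all 46 members 353 of 470 probes (75.1%) were higher with the mimic, against 52.1% of all kept probes that name a gene. The probes of 1 gene share its RNA and are not independent.

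The base carries the ATPase ring, and 5 of its 9 genes rose and none fell, all 5 of them ATPases (median of the 9, 0.25). PSMC4 had levels of 10.27, 10.36 and 10.33 in cntrl and 10.78, 10.80 and 10.89 in mimic145. No array of one group overlapped the other, and all 14 probes were higher. The rise was 0.50 ± 0.06 (1.42-fold, adjusted p = 0.000956), and like PSMB6 it passed in all 25 settings of the limma fit. PSMC3 rose by 0.35 (adjusted p = 0.00663), PSMC5 by 0.28 (adjusted p = 0.0167), PSMC6 by 0.26 (adjusted p = 0.0472) and PSMC1 by 0.25 (adjusted p = 0.0227). The last ATPase, PSMC2, changed by 0.18 (adjusted p = 0.113). PSMC6 passed in only 6 of the 25 alternatives. The scaffold subunits PSMD1 and PSMD2 changed by 0.05 and -0.07 and did not pass.

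The lid divided. Of its 8 genes 4 rose, PSMD7, PSMD13, PSMD6 and PSMD8, and 1 fell, PSMD14. PSMD7 had the largest rise of all members. Its levels were 10.57, 10.83 and 10.92 in cntrl and 11.32, 11.34 and 11.40 in mimic145. The control arrays were spread over a wider range than the mimic arrays, but the groups were apart, and all 7 probes were higher. The rise was 0.58 ± 0.12 (1.495-fold, adjusted p = 0.0102). PSMD13, a structural lid subunit, went from 10.01, 10.15 and 10.22 to 10.54, 10.48 and 10.55, a rise of 0.40 ± 0.07 (adjusted p = 0.00484). PSMD6 and PSMD8 rose by 0.34 and 0.32 (adjusted p = 0.00414 and 0.00852).

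PSMD14, the deubiquitinase that forms a pair with PSMD7 in the lid, lay on the other side. Its levels were 11.47, 11.44 and 11.61 in cntrl and 11.31, 11.06 and 11.33 in mimic145. The groups were apart, with all 12 probes lower, and it fell by 0.27 on the log2 scale (SE 0.07, adjusted p = 0.0217). Part of the size came from 1 probe at -1.30: with only probes above background on all arrays the change was -0.18 and no longer passed (adjusted p = 0.0558). The call was also lost with a median over probes (-0.26, adjusted p = 0.0512), with the slide as a block (adjusted p = 0.0559) without mimic145 replicate 1, 2 or 3 (adjusted p from 0.0558 to 0.0747), and without cntrl replicate 2 (adjusted p = 0.0928) or 3 (adjusted p = 0.0624).

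The alpha rings had 1 gene higher, 1 lower and a median of 0.05 over 7 genes. PSMA6 had levels of 13.06, 13.02 and 13.23 in cntrl and 12.82, 12.80 and 12.96 in mimic145. It fell by 0.24 on the log2 scale (SE 0.06, adjusted p = 0.0204), with the same direction in all 7 probes and in all 3 pairs. The fall did not pass with a median over probes (-0.36, adjusted p = 0.0603) or without cntrl replicate 1 or 2 or mimic145 replicate 1 or 3 (adjusted p from 0.0615 to 0.0715). PSMA5, another subunit of the ring, went from 12.81, 12.85 and 12.73 to 13.18, 12.97 and 12.99. The groups were apart, and it rose by 0.25 (adjusted p = 0.0389) and passed in 8 of the 25 alternatives. The other 5 alpha genes lay between -0.01 and 0.19.

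**Figure D3:**
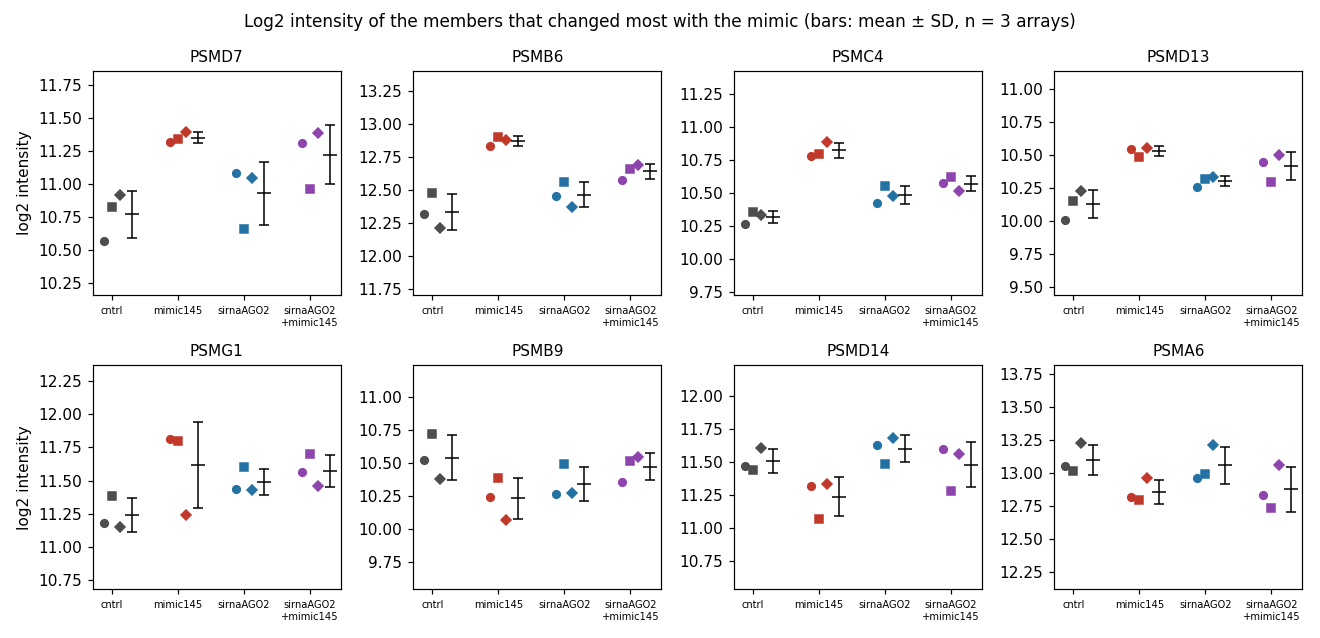
Log2 intensity of 8 members on each of the 12 arrays, with circles, squares and diamonds for replicates 1, 2 and 3, and bars for the mean ± SD. PSMD7, PSMB6, PSMC4 and PSMD13 lay higher on every mimic145 array than on every cntrl array, PSMD14 and PSMA6 lay lower, and PSMG1 and PSMB9 overlapped.

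Outside the core and the cap the counts were small. Over all genes 11.6% were called higher and 11% lower, so these counts do not set the 2 groups below apart. Of the 5 activators and inhibitors 1 rose, PSME3, the nuclear activator, from 10.51, 10.41 and 10.64 to 10.78, 10.60 and 10.84. The groups overlapped, but each pair rose, by 0.22 ± 0.06 on average (adjusted p = 0.0243). PSME1 and PSME2, which together form the interferon-induced activator, changed by 0.05 and 0.00 and did not pass. PSMF1, an inhibitor of the core, had a change of -0.16 (adjusted p = 0.123).

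Of the 7 assembly factors 1 rose. PSMG1, which with PSMG2 guides the alpha ring together, had levels of 11.18, 11.38 and 11.15 in cntrl and 11.81, 11.80 and 11.24 in mimic145. The third mimic145 array was close to its control, and the pairs rose by 0.64, 0.41 and 0.09. The mean rise was 0.38 ± 0.11 (adjusted p = 0.0311), and it did not pass with a median over probes (0.27, adjusted p = 0.169) or without cntrl replicate 1, 2 or 3 or mimic145 replicate 1 or 2 (0.26 to 0.43, adjusted p from 0.0541 to 0.121). PSMG2, its partner, changed by -0.01.

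The inducible catalytic subunits parted from one another. PSMB9, the interferon-induced counterpart of PSMB6, had levels of 10.52, 10.72 and 10.38 in cntrl and 10.24, 10.38 and 10.06 in mimic145. The groups just overlapped at 10.38, but each mimic array was lower than its control, by 0.28, 0.34 and 0.31, and all 7 probes were lower. It fell by 0.31 on the log2 scale (SE 0.09, 0.807 times the control level, adjusted p = 0.0301), a call that was lost without the replicate block (adjusted p = 0.133) and with a median over probes (-0.18, adjusted p = 0.281). It was also lost in the authors' log2 table (-0.22) and with scaling to the 75th percentile (-0.27), and without cntrl replicate 1 or 2, any 1 of the mimic145 arrays, or sirnaAGO2 replicate 3 (adjusted p from 0.0504 to 0.108). PSMB10, the counterpart of PSMB7, moved the other way, from 10.37, 10.54 and 10.33 to 10.74, 10.76 and 10.63. Its groups were apart, and it rose by 0.30 ± 0.06 (adjusted p = 0.00993). PSMB8, the counterpart of PSMB5, had 11.05, 11.34 and 11.18 in cntrl and 10.996, 11.06 and 11.14 in mimic145, with overlapping groups. It changed by -0.12 ± 0.08 and did not pass (adjusted p = 0.321).

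**Figure D4:**
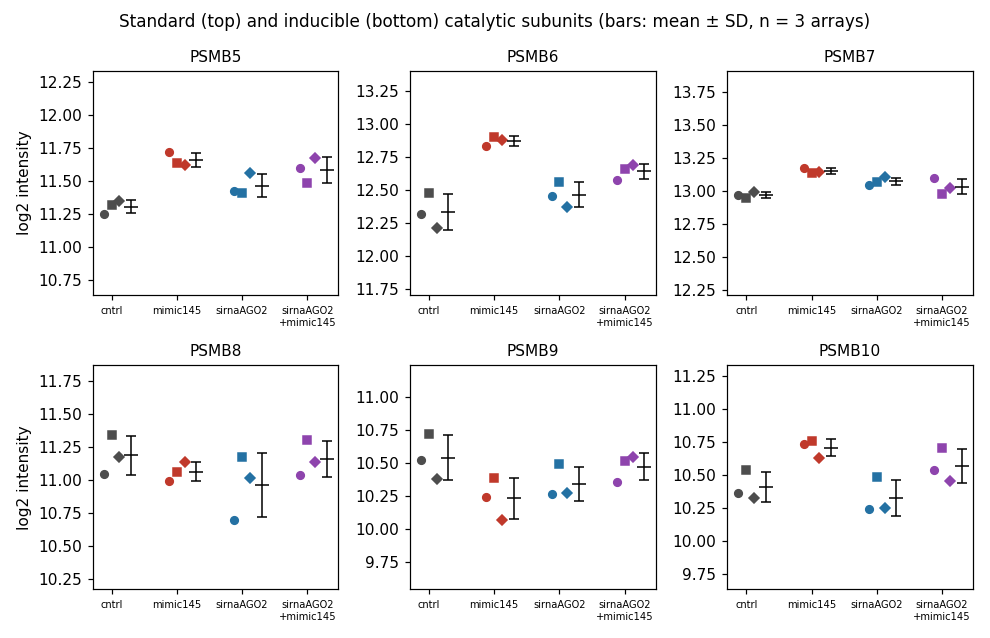
Log2 intensity of the 3 standard catalytic subunits (top) and of the inducible subunit that replaces each (bottom) on the 12 arrays; symbols mark replicates 1, 2 and 3 and bars the mean ± SD. With the mimic PSMB5, PSMB6 and PSMB10 rose and PSMB9 fell in cells with AGO2 not silenced, while none of the 6 passed the test in silenced cells.

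In cells with AGO2 silenced the question was whether the mimic did the same. No member passed in sirnaAGO2+mimic145 against sirnaAGO2, where limma called 4.25% of all genes higher and 3.03% lower. At an unadjusted p under 0.05 there were 4 members higher (PSMD7, PSMB10, PSMB8 and PSMB6) and 4 lower (PSMF1, PSMA6, PSMD2 and PSMG3), while 28.78% of all genes were under it, and 11.99% of all genes were under it and lower. The other settings called 0 to 2 members higher and 0 or 1 lower after adjustment. The median of the members was -0.02, against 0.02 over all genes. It lay on the other side of 0 with only probes above background on all arrays (0.02), so no direction is read from it. The 7 beta genes had a median of -0.04 and the 9 base genes of -0.03, and 5 of each were negative. With the stricter filter the medians were 0.07 and 0.02 and 3 of each were negative, so no direction is read from these either.

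PSMB10 came closest to the threshold in silenced cells, and all 3 inducible subunits had positive changes there. PSMB10 had levels of 10.25, 10.49 and 10.25 in sirnaAGO2 and 10.54, 10.71 and 10.45 in sirnaAGO2+mimic145. Each pair was higher, the groups overlapped slightly, and the change of 0.24 ± 0.06 just missed the threshold (adjusted p = 0.0539). With the stricter filter PSMB10 (adjusted p = 0.0314) and PSMD7 (adjusted p = 0.0485) were higher in silenced cells. PSMB8 and PSMB9 had changes of 0.20 (adjusted p = 0.159) and 0.13 (adjusted p = 0.342). PSMD7 had levels of 11.08, 10.66 and 11.05 in sirnaAGO2 and 11.31, 10.97 and 11.39 with the mimic added. Replicate 2 was low in both groups, each pair was higher, and the change was 0.29 ± 0.12 (adjusted p = 0.157). Among members with a negative change, PSMF1 had -0.22 (adjusted p = 0.0836), PSMA6 -0.18 (adjusted p = 0.0937), PSMD2 -0.16 (adjusted p = 0.171) and PSMG3 -0.16 (adjusted p = 0.161). PSMB4 had -0.22 (adjusted p = 0.387), of which the pairs gave -0.64, 0.01 and -0.02.

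Whether the mimic acted differently in the 2 backgrounds was tested as a difference of the changes, silenced minus normal. No member passed (smallest adjusted p = 0.0958), and over all genes 0.00548% were called in either direction, 1 gene each. Normexp background correction called 150 genes and the stricter filter 289, and with that filter PSMC4 passed (-0.42, adjusted p = 0.0474). At an unadjusted p under 0.05 there were 18 members, 16 of them with a negative difference, against 16.8% and 7.88% of all genes. The median of the members was -0.15, against 0.02 over all genes, and the 3 replicates gave -0.20, -0.16 and -0.10. Of the 46 members 37 had a negative difference, including all 7 beta genes (median -0.29) and all 9 base genes (median -0.23). The difference subtracts the change in normal cells, so the rise found there enters these values. For PSMC4 the change was 0.50 in normal and 0.09 in silenced cells, a difference of -0.42 ± 0.09 (adjusted p = 0.0958), and it was negative in each replicate, at -0.36, -0.37 and -0.52. For PSMB6 the changes were 0.53 and 0.18 and the difference -0.36 ± 0.10 (adjusted p = 0.157). For PSMB9 the changes were -0.31 and 0.13, and the difference of 0.44 ± 0.12 was positive in each replicate (adjusted p = 0.141).

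**Figure D5:**
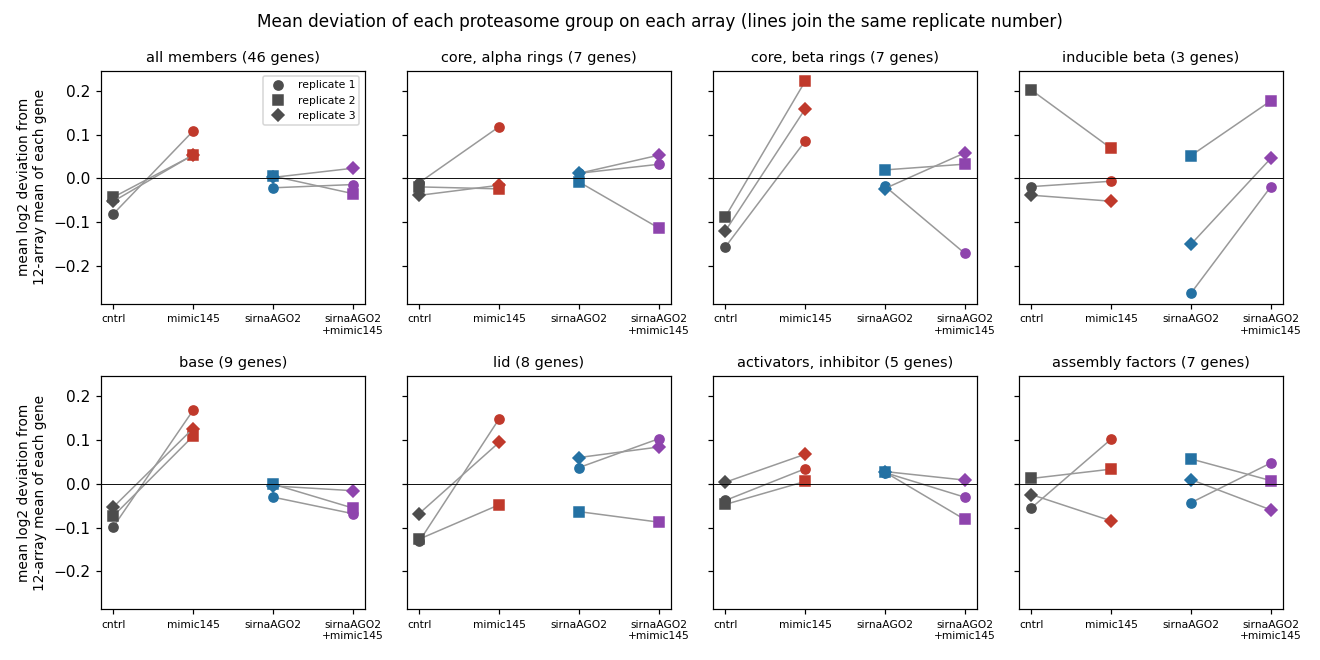
Mean deviation of each group of proteasome genes on each array from the 12-array mean of every gene, on the log2 scale, with lines joining arrays of the same replicate number. The 46 members together lay between -0.08 and -0.04 on the cntrl arrays, between 0.05 and 0.11 on the mimic145 arrays, and between -0.03 and 0.02 on the 6 arrays with AGO2 silenced.

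The arrays themselves show where the groups lay. Averaged over the 46 members, the deviation from each gene's mean over 12 arrays was -0.08, -0.04 and -0.05 in cntrl and 0.11, 0.05 and 0.05 in mimic145. It was -0.02, 0.01 and 0.00 in sirnaAGO2 and -0.01, -0.03 and 0.02 in sirnaAGO2+mimic145. The silenced arrays, with and without the mimic, thus lay between the controls and the mimic arrays. The beta rings were spread more widely, at -0.16 to -0.09 in cntrl, 0.09 to 0.22 in mimic145 and -0.02 to 0.02 in sirnaAGO2. In sirnaAGO2+mimic145 they were at -0.17, 0.03 and 0.06, so the first array lay below every control array. On that array PSMB4 (13.51, against 14.21 and 14.17) and PSMB2 (11.29, against 11.86 and 11.77) were low. Each slide carried 1 control or sirnaAGO2 array in the first position and the matching mimic array in the second, so position and mimic cannot be told apart within a comparison.

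Silencing alone, sirnaAGO2 against cntrl, compared arrays on different slides. It left 1 member higher and none lower, 2.17%, against 0.887% of all genes higher and 1.69% lower. This was PSME4, the activator that is linked to histone turnover and DNA repair. It had levels of 8.65, 8.41 and 8.81 in cntrl, 9.03, 8.83 and 9.02 in sirnaAGO2, and 8.92, 8.68 and 8.90 in mimic145. Every sirnaAGO2 array lay above every control array, and all 47 probes were higher. The rise was 0.34 ± 0.07 (1.26-fold, adjusted p = 0.0436), and it passed in 7 of 25 alternatives. It was lost without any 1 of the replicates. With the mimic in normal cells PSME4 changed by 0.21 and did not pass (adjusted p = 0.0616).

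Members were mostly on the positive side on silencing, 33 of 46, with a median of 0.09 against -0.03 over all genes. All 7 beta genes and all 8 lid genes were positive, at 0.02 to 0.16 and 0.03 to 0.26. The 3 inducible subunits were negative, PSMB8 at -0.22 (adjusted p = 0.188), PSMB9 at -0.20 (adjusted p = 0.249) and PSMB10 at -0.08 (adjusted p = 0.523). At an unadjusted p under 0.05 limma had 12 members, against 18.98% of all genes. This comparison uses the same cntrl arrays as the comparison of the mimic, so the values of those arrays enter both. Its sirnaAGO2 arrays are also the baseline of the mimic in silenced cells. The negative changes of the inducible subunits here and their positive changes there thus share those arrays.

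Silencing in cells with the mimic, sirnaAGO2+mimic145 against mimic145, left 1 member lower and none higher, against 2.44% and 1.86% of all genes. PSMC6, an ATPase of the base, had levels of 10.92, 10.81 and 10.80 in mimic145 and 10.49, 10.34 and 10.61 in sirnaAGO2+mimic145. The groups were apart, and all 14 probes were lower. It fell by 0.36 on the log2 scale (SE 0.08, adjusted p = 0.0436) and passed in 6 of 25 alternatives. In cntrl it had 10.53, 10.51 and 10.696 and in sirnaAGO2 10.55, 10.48 and 10.80, so the mimic145 arrays were the highest of the 4 groups except for sirnaAGO2 replicate 3. All 9 base genes were at or below 0 (median -0.20) and all 7 beta genes below it (median -0.17), and 14 members had an unadjusted p under 0.05 in that direction, against 11.81% of all genes. The same mimic145 arrays serve the comparison of the mimic, so the rise found there enters these values. The groups compared here also lay on different slides. PSMD14 was on the other side, at 0.24 ± 0.07 (adjusted p = 0.0833).

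The genes around the proteasome were read from lists of its partners. With the mimic in normal cells 2 of 11 measured proteins that bind or assemble the proteasome rose and none fell. Over all genes 11.6% were called higher and 11% lower, so counts this small do not set the list apart. ADRM1, the ubiquitin receptor of the cap, had levels of 10.41, 10.54 and 10.26 in cntrl and 10.999, 10.97 and 10.76 in mimic145. All mimic arrays were above all controls, and the rise was 0.51 ± 0.07 (adjusted p = 0.00109) in 10 of 10 probes. POMP, the chaperone that completes the barrel, rose by 0.33 ± 0.09 (adjusted p = 0.0218). In silenced cells they changed by 0.12 and 0.08 and neither passed.

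Among the genes for the activation of ubiquitin and the delivery of substrates that are reported here, UFD1, which with VCP extracts substrates, rose by 0.31 (adjusted p = 0.00762). DDI2 and RAD23B fell by 0.46 and 0.35 on the log2 scale (adjusted p = 0.0140 and 0.0228). RAD23B carries ubiquitinated proteins to the proteasome.

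Of 7 genes that control proteasome transcription 1 rose and 1 fell, while 11.6% of all genes were called higher and 11% lower. These counts are near that share and are not read as a result about the list. MAFK, a partner of NFE2L1 on DNA, rose by 0.55 ± 0.12 (adjusted p = 0.0138), and DDI2, counted above as well, was the one that fell. DDI2 had levels of 7.37, 7.01 and 7.30 in cntrl and 7.01, 6.55 and 6.72 in mimic145, lower in each pair. The groups did not overlap, although the highest mimic array lay just under the lowest control. NFE2L1 itself had a change of -0.20 (adjusted p = 0.168).

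Among the genes of antigen presentation that are reported here, which interferon raises together with the inducible subunits, ERAP2 and ERAP1, which trim peptides, fell with the mimic by 0.46 and 0.32 on the log2 scale (adjusted p = 0.00259 and 0.0329). TAP1, the neighbour of PSMB9, changed by -0.03 and did not pass. On silencing alone IRF1, a transcription factor of the interferon response, and ERAP1 fell by 0.32 and 0.42 (adjusted p = 0.0441 and 0.0456). With the mimic in silenced cells ERAP1 changed by -0.18 (adjusted p = 0.220) and IRF1 by 0.14 (adjusted p = 0.197), and neither passed.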

How the data were processed

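The members and gene lists were chosen with earlier results of these data known. The authors deposited 1 scanner file per array (Agilent Feature Extraction 10.7.3.1, per the file headers) with intensity per spot, already background-corrected, and a normalized table of log2 values. Here the processed intensity was set to at least 1, quantile normalized, taken as log2 and averaged over spots, then over kept probes. Control spots and outlier spots were left out. Transcripts were named through the RefSeq table. Some genes of the ubiquitin and antigen presentation lists are not reported here, so no counts are given for those lists. All 12 arrays entered 1 limma fit (limma 3.58.1, R 4.3.3) with replicate number as a block, and p-values were adjusted by Benjamini-Hochberg over 18255 genes. Named are all members that passed (6 largest each way where over 12 did), the largest change of each subcomplex with the mimic, and PSMB5 to PSMB10. Same-numbered samples deviated together (r 0.14 to 0.58 over 18 pairs, against -0.50 to 0.20 over 36 others). The script was tested on simulated data. The number of arrays limits the precision. Alternatives are given in the closing section.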

Additional observations from a re-analysis of the deposited data

Results flagged for a closer look

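For 3 members the mimic moved all 3 replicate pairs one way in cells with AGO2 not silenced and all 3 the other way in silenced cells. PSMB9 changed by -0.31 and 0.13 (difference 0.44, limma, adjusted p = 0.141). PSMB8 changed by -0.12 and 0.20 (difference 0.32, adjusted p = 0.232). PSMC6 changed by 0.26 and -0.13 (difference -0.39, adjusted p = 0.158). None of the 3 differences passed after adjustment over all genes. The 3 were picked on these same values, and the share of all genes that reversed in this way was not counted. Of all genes 28.1% were higher and 24.5% lower in all 3 pairs without silencing, and 29.3% and 23.4% in silenced cells. The number of such members is therefore not read as a result about them.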

How the results depend on the processing

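With the mimic in cells with AGO2 not silenced, 16 members were higher and 3 lower. Dropping the replicate block gave 8 and 0, taking the slide as a block 10 and 1, and fitting only the compared arrays 3 and 0. In that order 5.13%, 8.72% and 4.44% of all genes were called higher, against 11.6% in the main fit. The methods' t-test on the 3 pairs gave 0 and 0 after adjustment, and a median over probes took the lower count to 0. All 8 members called without the block were among the 19. Without 1 replicate the counts were 2 to 5 and 0, and without 1 array 9 to 15 and 0 to 3. Of all genes 2.70% to 5.98% and 6.69% to 12.4% were called higher in these fits. The median of the members moved from 0.10 to 0.157 in the authors' table, 0.163 with probes above background on every array and 0.196 with a median over probes, and ran from 0.135 to 0.161 without a replicate and from 0.096 to 0.158 without an array.

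In silenced cells 0 members passed. Scaling to the percentile, normexp and an intensity trend gave 1 higher each, and probes above background on every array gave 2 higher and a median of 0.025. Normexp gave 1 lower, and the methods' t-test, unadjusted, 3 higher and 2 lower. Leaving out a replicate or an array gave 0 throughout, with medians of -0.023 to 0.020 and -0.027 to 0.009. Percentile scaling moved the median of all genes there to 0.107 and the split of all calls from 775 higher and 553 lower to 1916 and 477.

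For silencing alone, the 1 member higher became 0 with no filter, with a median over probes, without the replicate block, with only the compared arrays and in the adjusted t-test, and 16 in the unadjusted t-test. The lower count of 0 became 1 with normexp and 3 in the unadjusted t-test. The median of 0.087 became 0.057 with percentile scaling, 0.065 with normexp and 0.075 with a median over probes. Without a replicate the higher count was 0 and the median 0.061 to 0.086, and without an array 0 to 1 and 0.053 to 0.087.

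For silencing with the mimic, the 1 member lower became 0 with percentile scaling, a median over probes, no replicate block, only the compared arrays and the adjusted t-test. It became 2 with normexp, 2 with probes above background on every array, 3 with an intensity trend and 5 in the unadjusted t-test. The higher count of 0 became 1 with normexp and 1 in the unadjusted t-test. The lower count was 0 without a replicate and 0 to 1 without an array, with medians of -0.127 to -0.072 and -0.131 to -0.061. For the difference of the mimic's changes, normexp and probes above background on every array gave 1 lower each, and the unadjusted t-test 13 lower and 2 higher. Its median was -0.188 to -0.132 without a replicate and -0.191 to -0.127 without an array. Except for the settings with fewer arrays or probes, the cause of these changes was not tested. Leaving out the discordant probe of 7 members was chosen after seeing the data. From the silenced cells on, counts per setting lack the share of all genes and are not read as results about the members.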
